A study of Astyanax mexicanus with 6 samples.

Results

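Most of the genes described here encode the enzymes that write and remove methyl groups on DNA, in eyes of the Mexican tetra, Astyanax mexicanus, of its cave and its surface morph. They were taken by name alone: every gene of the count table whose name starts with dnmt, uhrf, tdg. (with the point) or tet followed by 1, 2 or 3. This gave 11 genes of 25271. Each of the 11 was among the 22850 genes that passed edgeR's filter on low counts. Of these, 9 encode proteins of DNA methylation or demethylation. The other 2, uhrf1bp1 and uhrf1bp1l, share only the start of a name, since in humans their counterparts encode lipid transfer proteins, and they are given last. RefSeq's gene table for the assembly AstMex3_surface holds 4 further symbols of the same kind, dnmt3ab, dnmt3bb.3, tet1 and tet2; no gene of the count table carries these names, and they are not analysed here.

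Eyes were taken at about 54 hours after fertilization from wild-type animals of both morphs, and RNA and DNA came out of a shared extraction kit, per the labels' protocols. The cave morph is eyeless as an adult but starts to build an eye in the embryo, and the series title concerns an epigenetic mechanism of that loss. Poly(A) RNA was read in 2 libraries of each morph, and whole-genome bisulfite sequencing (WGBS), which reads unmethylated cytosine as thymine, in 1 library of each morph. The labels do not say how many embryos went into a library or whether the 2 RNA libraries of a morph are separate pools, so p-values speak only to the spread among these libraries, and that spread may be technical.

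DNA methylation in vertebrates sits mainly on cytosines followed by guanine. After a round of replication the new strand is bare, and Dnmt1, led to such sites by Uhrf1, copies the pattern onto it. The Dnmt3 enzymes place methyl groups on DNA that had none, and fishes carry several dnmt3 genes from duplication. Removal starts with Tet enzymes, which oxidize methylcytosine, and Tdg, thymine DNA glycosylase, cuts out the oxidized base so that base excision repair can put back a plain cytosine. Upstream regions with little methylation are typical of genes in broad use, while the bodies of such genes are usually methylated.

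RNA libraries held between 117742250 and 154476181 counts. Markers of photoreceptors set the libraries apart: 19 of 19 tested marker genes were higher in the libraries labelled cave (edgeR, adjusted p below the threshold of 0.05), and their summed level was 5339 and 6323 against 90.8 and 102 CPM, the usual count scaled to library size, here with edgeR's TMM factors between libraries. In the authors' deposited table of this comparison the signs run opposite to the names of the count columns, and its headers name no direction. Whether each RNA library carries the right morph's label was not tested, so RNA libraries are called labelled cave and labelled surface, and a name such as cave replicate 1 is the label's. Markers of neighbouring tissue also differed by library. Of 13 forebrain marker genes 1 was called lower and 0 higher, and their summed level was 193 and 71.5 CPM in the libraries labelled cave against 403 and 618 CPM in those labelled surface, and that of 10 epidermis marker genes was 11011 and 1171 against 9090 and 10112 CPM. Muscle markers summed to 808 and 94.6 against 212 and 228 CPM, and retinal progenitor markers to 597 and 979 against 666 and 557 CPM, so the lists took different orders over the libraries. In bulk tissue fewer cells of a type and less RNA per cell cannot be told apart, and the part of these tissues in the results below was not tested.

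No gene of the group passed the test for a difference in RNA. Relative to labelled surface, edgeR called 0 of 11 higher and 0 of 11 lower in labelled cave, against 2.77% and 0.407% of all genes tested. At an unadjusted p under 0.05 it held 1 of 11, dnmt3bb.1, against 18.3% of all genes. DESeq2 called 1 of 11 lower, again dnmt3bb.1, against 3.14% of all genes. The log2 fold change of labelled cave over labelled surface was below 0 for 9 genes and above 0 for 2, with a median of -0.28 against 0.020 over all genes tested. In 5 of 11 genes both libraries labelled cave lay below both labelled surface, against 24.2% of all genes, and in 1 of 11 both lay above, against 28.5%. The 95% interval of a gene's log2 fold change, which is not adjusted for the number of genes, reached 0.67 to either side in the median gene. A call after adjustment needed a wider margin, and dnmt3bb.1 at -1.45 was not called by edgeR. The lack of calls therefore leaves room for sizeable differences. In the authors' deposited table each of the 11 has the opposite sign, from -0.47 at tdg.2 to 1.35 at dnmt3bb.1. In 5 of 11 genes the 2 libraries labelled cave differed from each other by more than the groups did. The share of all genes that do so was not computed, so this count marks no trait of the group.

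**Figure D1:**
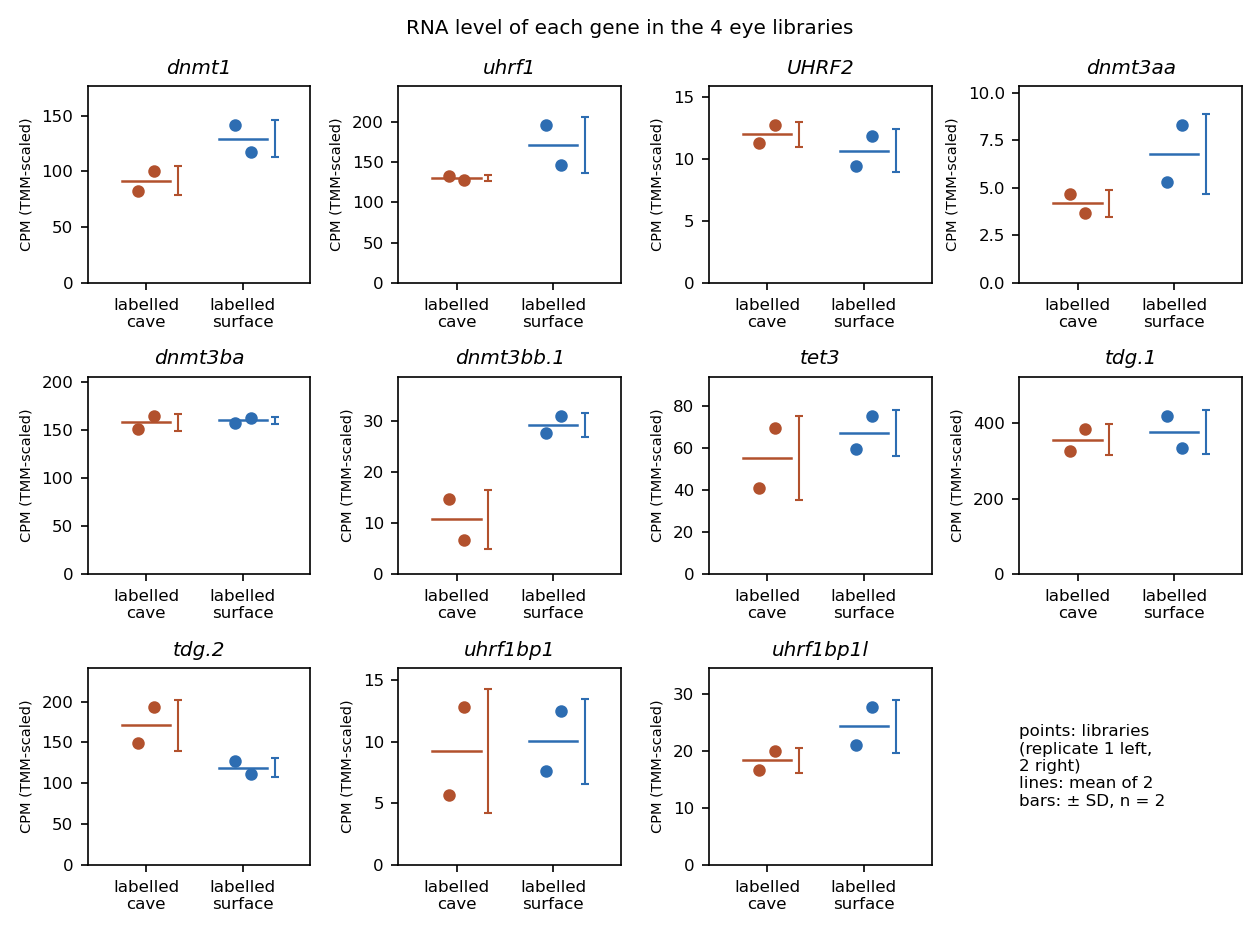
RNA level of the 11 genes, in TMM-scaled CPM on axes that start at 0, in the 2 libraries labelled cave (brown) and the 2 labelled surface (blue); lines are means and bars ± SD (n = 2). As a ratio, the groups stand farthest apart for dnmt3bb.1, at 14.7 and 6.64 against 27.5 and 30.8 CPM, and nearly coincide for dnmt3ba.

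The widest difference on the log2 scale was that of dnmt3bb.1, a de novo methyltransferase gene that in zebrafish is known for its role in blood stem cells. The gene (ENSAMXG00000019567, scaffold KB882128.1, 3002772 to 3062345, forward strand; the genome build is not given in the sources used here) had counts of 1939 and 746 in the libraries labelled cave and 3938 and 5167 in those labelled surface. Scaled for library size these are 14.7 and 6.64 against 27.5 and 30.8 CPM. Both libraries labelled cave were below both labelled surface, and cave replicate 2 was the lowest of all 4. The group means of 10.7 ± 5.73 and 29.2 ± 2.34 CPM (SD, n = 2) correspond to a level 2.73-fold higher in the libraries labelled surface, a log2 fold change of -1.45 with a 95% interval of -2.50 to -0.39. It was not past the threshold (edgeR, Benjamini-Hochberg adjusted p = 0.157), while DESeq2 put it past (adjusted p = 0.021).

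The size for dnmt3bb.1 depended on the library. Against the mean of the libraries labelled surface, cave replicate 1 was lower by a log2 value of -0.98 and cave replicate 2 by -2.13. Fits with 1 library left out leave a group of 1 and take the spread from the other pair. For single members, here and below, only the sizes from such fits are therefore given. There edgeR gave a log2 fold change of -2.13 without cave replicate 1 and -1.07 without cave replicate 2. Without surface replicate 1 or 2 it gave -1.62 and -1.36. Forebrain markers took the same order over the libraries, with a median of -1.29 in cave replicate 1 and -3.33 in cave replicate 2 relative to the surface mean. The blood and macrophage markers stood at -0.11 and -0.54, and epidermis markers at 0.19 and -3.12. In the authors' deposited table dnmt3bb.1 has a log2 fold change of 1.35 (SE 0.43, adjusted p = 0.0205), the opposite sign to the one by the count columns.

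The other de novo genes lay closer together between the groups, a contrast that was not tested. The gene dnmt3ba (ENSAMXG00000007591, KB871688.1, 4484799 to 4503783) was nearly level, at 152 and 164 CPM in the libraries labelled cave and 158 and 163 CPM in those labelled surface. The ranges overlap, and the log2 fold change of -0.021 had a 95% interval of -0.47 to 0.42 (edgeR, Benjamini-Hochberg adjusted p = 0.966). As a fold of labelled cave over labelled surface, that interval runs from 0.72 to 1.34. The third gene, dnmt3aa (ENSAMXG00000001678, KB882297.1, 187189 to 305997), the counterpart of mammalian Dnmt3a, was at 4.70 and 3.69 against 5.28 and 8.28 CPM. Its groups did not overlap, but the surface replicates differed from each other by 0.65 on the log2 scale, and the log2 fold change of -0.69 (interval -1.72 to 0.33) missed the threshold (edgeR, Benjamini-Hochberg adjusted p = 0.443). Within each library the ratio of dnmt3bb.1 to dnmt3ba counts, which needs no scaling between libraries, was 0.0973 and 0.0404 in those labelled cave and 0.175 and 0.189 in those labelled surface. The ratio separates the groups, though 2 against 2 libraries cannot give a p below 0.333 in an exact permutation test.

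The genes of maintenance methylation, dnmt1 and uhrf1, also had lower levels in both libraries labelled cave, by less and short of the threshold. The gene dnmt1 (ENSAMXG00000012182, KB872428.1, 86460 to 115614) stood at 82.6 and 101 CPM in the libraries labelled cave and 141 and 118 CPM in those labelled surface. Its log2 fold change was -0.50 (interval -1.03 to 0.031; edgeR, Benjamini-Hochberg adjusted p = 0.297). The gene uhrf1 (ENSAMXG00000021593, KB882097.1, 3108562 to 3120149), whose product binds DNA methylated on one strand and recruits Dnmt1, stood at 133 and 127 against 196 and 146 CPM, a log2 fold change of -0.39 (interval -0.93 to 0.15; adjusted p = 0.408 in the same edgeR fit). For both genes the groups did not overlap, and surface replicate 1 was the highest library. Without cave replicate 2, dnmt1 was at -0.73 with adjusted p = 0.0494 in edgeR, where 8.37% of all genes were called lower; over the alternatives tried its adjusted p ran from there to 0.815.

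Both proteins act mainly behind the replication fork, and the replication genes had a median below 0 as well. Of 29 genes of S phase and replication tested, 0 were called in either direction, and the median log2 fold change was -0.32. At an unadjusted p under 0.05 there were 3 lower and 1 higher, a smaller share than the 18.3% of all genes. Relative to the surface mean that list stood at -0.40 in cave replicate 1 and -0.27 in cave replicate 2, dnmt1 at -0.64 and -0.36, and uhrf1 at -0.35 and -0.41. Most members of the list lay below 0, such as chaf1a, a chromatin assembly gene, at -0.67. The highest value was that of rrm2, a ribonucleotide reductase gene, at 0.88, and the next was that of prim1 at 0.19. None of these was past the threshold. The list of 15 mitosis genes had 0 calls and a median of -0.27. The part of proliferating cells in the values of dnmt1 and uhrf1 was not tested. The ratio of uhrf1 to dnmt1 counts was 1.61 and 1.26 in the libraries labelled cave and 1.38 and 1.24 in those labelled surface, and the groups overlapped.

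The second uhrf gene, UHRF2 (ENSAMXG00000018189, KB871642.1, 279536 to 354716), whose mammalian product resembles Uhrf1 but does not replace it in maintenance, had a value on the other side of 0. It stood at 11.2 and 12.7 against 9.45 and 11.9 CPM, with overlapping groups and a log2 fold change of 0.17 (interval -0.57 to 0.91; edgeR, Benjamini-Hochberg adjusted p = 0.817). The sign of that value changed without cave replicate 2 (-0.0093) and without surface replicate 1 (-0.075).

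**Figure D2:**
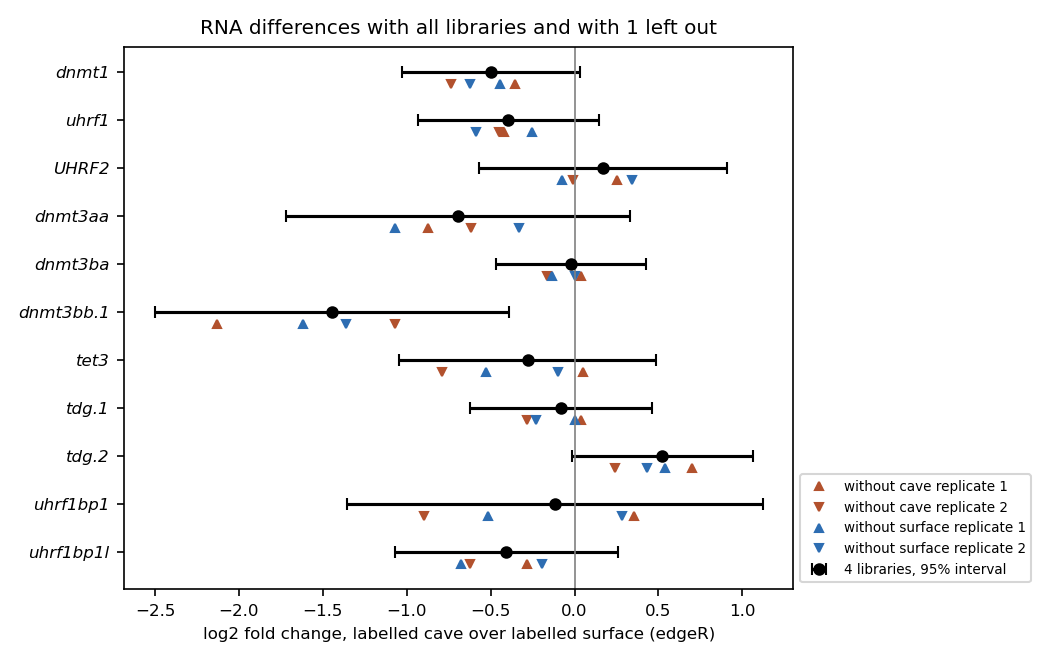
Log2 fold change of each gene from edgeR, labelled cave over labelled surface, with all 4 libraries (black, bars are 95% intervals) and with 1 library left out (triangles). The interval of dnmt3bb.1, from -2.50 to -0.39, is the only one that leaves out 0; its value ranges from -2.13 to -1.07 with a library left out.

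The genes of base removal, a tandem pair, had values on either side of 0, neither past the threshold. The gene tdg.1 (ENSAMXG00000002030, KB882164.1, 1254048 to 1260703) had 43094 and 43313 counts in those labelled cave and 59843 and 56118 in those labelled surface, which is 328 and 385 against 418 and 335 CPM. The groups overlapped, with a log2 fold change of -0.078 (interval -0.62 to 0.46; edgeR, Benjamini-Hochberg adjusted p = 0.890). Its neighbour tdg.2 (ENSAMXG00000002041, 1261706 to 1265896 on the same strand, 1002 bases away) had 19618 and 21682 against 18188 and 18603 counts, or 149 and 193 against 127 and 111 CPM.

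Of the 11 genes, tdg.2 alone had both libraries labelled cave above both labelled surface. Its log2 fold change was 0.52 (interval -0.016 to 1.06), a level 1.44-fold higher in the libraries labelled cave that missed the threshold (edgeR, Benjamini-Hochberg adjusted p = 0.286). It passed the threshold in the fit without cave replicate 1 (0.70, edgeR adjusted p = 0.038), where 12.9% of all genes were called higher and 18.1% lower. Without cave replicate 2 it was at 0.24, and over the alternatives tried its adjusted p ran from 0.038 to 0.929. The ratio of tdg.2 to tdg.1 counts was 0.455 and 0.501 in the libraries labelled cave and 0.304 and 0.332 in those labelled surface, a mean log2 difference of 0.59 with no overlap. The copies are near relatives, and how reads that fit both were assigned is not given in the sources used here, so the split of counts between them is uncertain.

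The oxidation step is held here by tet3 (ENSAMXG00000015236, KB871943.1, 318077 to 346033), which encodes a methylcytosine dioxygenase. It had 41.2 and 69.6 CPM in the libraries labelled cave and 59.4 and 75.1 CPM in those labelled surface. The groups overlapped, since cave replicate 2 lay between the surface replicates and only cave replicate 1 below them. The log2 fold change of -0.28 had an interval of -1.05 to 0.49 (edgeR, Benjamini-Hochberg adjusted p = 0.695). It was -0.79 without cave replicate 2 (edgeR adjusted p = 0.0294) and 0.052 without cave replicate 1, so the sign rested on cave replicate 1. Over the alternatives tried its adjusted p ran from 0.0294 to 0.999 in edgeR and DESeq2.

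The genes that share only the name start were not called either. The gene uhrf1bp1 (ENSAMXG00000011448, KB872322.1, 54147 to 79995) was at 5.72 and 12.8 against 7.62 and 12.5 CPM and had the widest interval of the 11, from -1.36 to 1.12 around a log2 fold change of -0.12. In uhrf1bp1l (ENSAMXG00000015887, KB882087.1, 711239 to 775815) the levels were 16.7 and 19.9 against 20.9 and 27.6 CPM, with a log2 fold change of -0.41 (interval -1.07 to 0.26). The groups overlapped in the first and not in the second, and neither passed the threshold (edgeR, Benjamini-Hochberg adjusted p = 0.931 and 0.490).

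**Figure D3:**
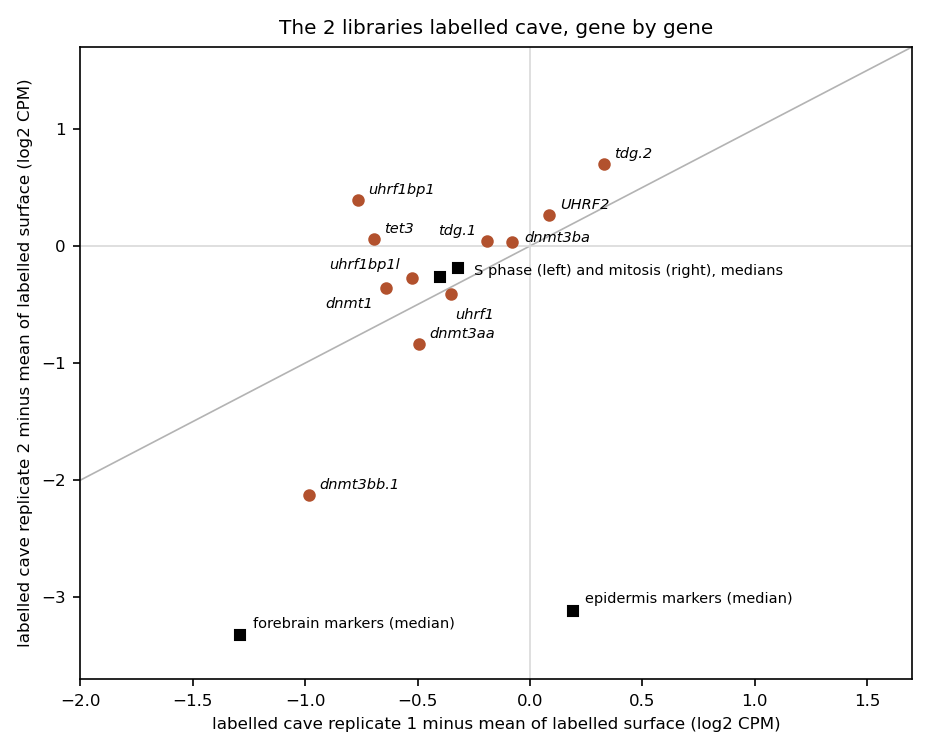
Difference in log2 CPM between each library labelled cave and the mean of the libraries labelled surface, for the 11 genes (brown) and for the medians of 4 gene lists (black squares); the grey diagonal marks equal values in both libraries. The gene dnmt3bb.1 is low in both (-0.98 and -2.13), tdg.2 is high in both (0.33 and 0.70), and tet3 is low in replicate 1 alone (-0.70 and 0.059).

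Likeness of pattern was measured over the 4 RNA libraries. The closest pairs by Euclidean distance of centred log2 CPM were dnmt3ba with tdg.1 (0.28), UHRF2 with dnmt3ba (0.28) and dnmt1 with uhrf1 (0.29), and the farthest was dnmt3bb.1 with tdg.2 (2.35). Among 12292 other named genes with an average log2 CPM of at least 1, those nearest to dnmt3bb.1 were ptprna (0.15), hhip (0.16) and AXL (0.18), and 5 lay within 0.2. The nearest to dnmt1 were sass6 (0.032), daxx and odc1 (0.033 each), with 208 genes within 0.2, and the nearest to tdg.2 was timm8b (0.031) with 330. Such distances rest on 4 libraries and describe likeness only.

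DNA methylation of the same genes was read in 1 library per morph, over a region upstream of the gene, whose width is not given in the sources used here, and over the gene body. The median upstream region had 1004 calls in the cave library against 924 in the surface library. Every cave value is an even number, upstream and in gene bodies, while the surface library has odd and even values; if cave calls were counted doubly, cave depth is overstated and cave intervals are too narrow, which was not tested. With cave calls halved, each member kept its call or lack of one. With 1 library each, tests compare these libraries and not the morphs. Upstream regions of the methyltransferase genes other than dnmt3aa were nearly free of methylation in both libraries. Methylated calls made up 8.43% of 878 calls in the cave library against 5.35% of 803 in the surface library at dnmt1, 5.19% of 2198 and 4.50% of 2889 at dnmt3ba, and 3.20% of 1438 and 2.94% of 1088 at dnmt3bb.1. The upstream region of uhrf1 was at 5.99% of 1570 and 2.23% of 2554 calls. With uhrf1bp1, at 2.38% and 3.85%, this makes 5 of 11 regions under 10% in both libraries, against 16.5% of the 23680 upstream regions compared.

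The gene dnmt3bb.1, whose RNA had the largest log2 fold change in size, had a difference of 0.258 points upstream. The exact 95% intervals (Clopper-Pearson, counting error only, and too narrow because calls on a read are not independent) ran from 2.35% to 4.24% in the cave library and from 2.02% to 4.13% in the surface library. They overlap (two-sided Fisher's exact test, Benjamini-Hochberg adjusted p = 0.792).

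The other upstream regions were methylated to varied degrees. That of tet3 was highly methylated, with 87.4% of 1712 cave calls and 83.8% of 2156 surface calls, above the medians of 72.7% and 70.5% over all upstream regions compared. The region of dnmt3aa was at 55.5% and 59.9%, that of uhrf1bp1l at 32.7% and 34.0%, and that of UHRF2 at 13.1% and 20.1%. The region of tdg.1 was at 22.7% of 388 calls and 13.9% of 374, a difference of 8.78 points with exact intervals of 18.6% to 27.2% and 10.6% to 17.8%.

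A region was called different where the Fisher's exact test had an adjusted p under 0.05 and the difference was at least 10 points. By this rule 1 of 11 upstream regions, that of tdg.2, was more methylated in the cave library and 0 were less, against 12.1% and 8.67% of all regions compared. The region of tdg.2 held 52.8% methylated of 2884 calls in the cave library (exact interval 51.0% to 54.7%) and 28.7% of 2334 in the surface library (26.9% to 30.6%). The difference of 24.1 points was larger in size than that of 95.7% of upstream regions (two-sided Fisher's exact test, Benjamini-Hochberg adjusted p = 6.03e-68). The median difference was 0.687 points over the 11 regions and 0.729 over all.

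Another gene lies on the upstream side of tdg.2. A gene named si:ch211-68a17.7 (ENSAMXG00000002044, KB882164.1, 1266061 to 1267529) starts 164 bases from the start of tdg.2 and runs away from it on the other strand, so the 1469 bases that follow are the body of that gene. In its gene body methylated calls were 44.2% of 2272 in the cave library against 20% of 1670 in the surface library, which is 24.2 points apart and was also called. The width of the upstream region is not given, so this body and the region upstream of tdg.2 may share calls. They are not separate observations. The body of tdg.2 itself, at 68.0% and 67.5%, differed by 0.541 points. The neighbour's RNA was at 33.8 and 32.7 CPM in the libraries labelled cave and 22.8 and 15.1 CPM in those labelled surface. As with tdg.2 both libraries labelled cave were above both labelled surface, and the log2 fold change of 0.81 missed the threshold (SE 0.28; edgeR, Benjamini-Hochberg adjusted p = 0.215).

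**Figure D4:**
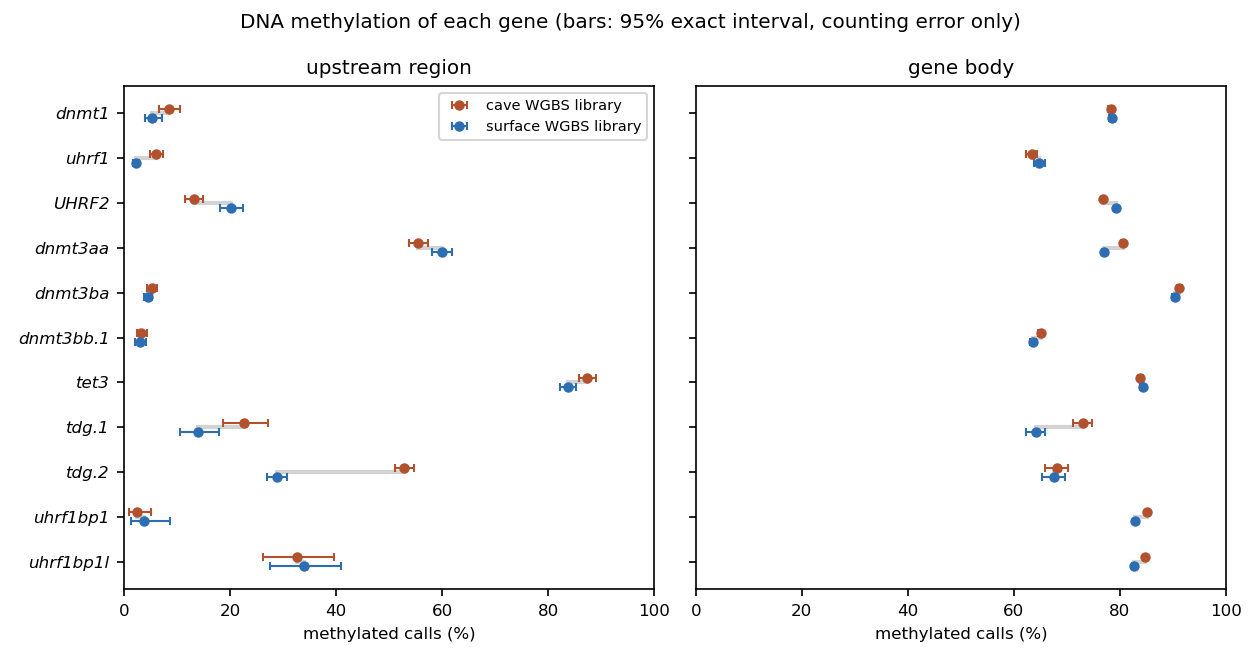
Share of methylated calls upstream of each gene (left) and in its body (right), in percent, in the cave (brown) and surface (blue) WGBS libraries, with 95% exact intervals for counting error. The region upstream of tdg.2, at 52.8% and 28.7%, shows the widest gap, and 5 upstream regions lie under 10% in both libraries while gene bodies lie between 63.4% and 91.2%.

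Gene bodies were methylated in each of the 11 genes, and none differed by 10 points. The adjusted p of Fisher's exact test was under 0.05 in 7 of 11, against 70.0% of all gene bodies. With cave calls halved, that of dnmt3ba was no longer under 0.05 (0.058). Levels ran from 63.4% at uhrf1 to 91.2% at dnmt3ba in the cave library and from 63.6% at dnmt3bb.1 to 90.4% at dnmt3ba in the surface library. None of 11 was called in either direction, against 3.15% more and 1.99% less methylated among 25016 gene bodies, and the median difference of 0.879 points was near the 0.950 points over all. The largest was that of tdg.1, at 73.0% of 2374 calls and 64.1% of 2801, 8.96 points apart and under the 10 points a call needed. It was larger in size than that of 93.4% of gene bodies. At tet3 the upstream region and the body were about equally methylated, with the body minus the upstream region at -3.53 points in the cave library against 0.529 in the surface library, whereas at dnmt3ba that difference was 86.0 and 85.9 points.

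The other genes of the pathway were taken in 4 lists: proteins that bind CpG sites, base excision repair, deaminases with GADD45 genes, and partners of the Tet and Dnmt enzymes. Of 55 genes tested, 1 was called higher in the labelled cave pair and 0 lower, against 2.77% and 0.407% of all genes, and the median log2 fold change was -0.0099. The first list mixes genes whose products bind methylated CpG, such as mbd2 and zbtb38, with CXXC-domain genes such as cxxc4 and cxxc5b, a domain known mainly for binding unmethylated CpG. Of its 16 genes 0 passed in either direction (median -0.039). The 4 with the smallest p were cxxc4 (-1.28) and zbtb38 (-1.53), below 0, and cxxc5b (0.56) and mbd2 (ENSAMXG00000006553, 0.80), above 0. Another gene of the list, named MBD2 (ENSAMXG00000007765), was at 0.21 (edgeR, Benjamini-Hochberg adjusted p = 0.821). DESeq2 with Benjamini-Hochberg adjustment called cxxc4 and zbtb38 lower (adjusted p = 0.0361 and 0.0188), where 3.14% of all genes were called lower. In edgeR with all 4 libraries their adjusted p was 0.157 and 0.172. With 1 library left out their log2 fold changes ran from -1.70 to -0.83 and from -1.96 to -1.10. Of 17 partner genes 0 passed (median -0.050), with setdb1b, a histone methyltransferase gene, at -0.62.

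Of the 8 deaminase and GADD45 genes tested 0 passed (median -0.00017). The lowest was a copy named gadd45gb.1 (ENSAMXG00000009080, KB882222.1, 1767080 to 1769138), a gene of the stress-induced family that has been tied to DNA demethylation. It stood at 5.98 and 4.96 against 15.7 and 14.1 CPM, with no overlap and the log2 fold change at -1.45 (SE 0.30; edgeR, Benjamini-Hochberg adjusted p = 0.0796; DESeq2, adjusted p = 0.00023, and up to 0.657 over the alternatives tried). A second gene of that name (ENSAMXG00000009069) on the same scaffold stood at -0.62 (edgeR adjusted p = 0.239), and reads may be split between such copies. Both had upstream regions under 5% methylated, at 2.50% and 0.639% for the first and 4.34% and 3.68% for the second in the cave and surface library.

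In the repair list 1 of 14 genes rose, MUTYH (ENSAMXG00000005262, KB871894.1, 292957 to 300662), with 0 lower and a list median of 0.075. Its mammalian counterpart encodes a glycosylase that removes adenine paired with oxidized guanine, a repair reaction outside the demethylation route. Its counts were 1709 and 1383 in the libraries labelled cave and 257 and 199 in those labelled surface, or 13.0 and 12.3 against 1.80 and 1.19 CPM. The libraries of a group lay close together and the groups far apart. The level was 8.48-fold higher in the libraries labelled cave (95% interval 4.28 to 16.8), a log2 fold change of 3.08 (SE 0.40; edgeR, Benjamini-Hochberg adjusted p = 0.0238). Without surface replicate 1 or 2, when edgeR called no gene at all, its adjusted p was 0.324 and 0.388 at log2 fold changes of 3.33 and 2.82. In the authors' deposited table it has a log2 fold change of -2.83.

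The upstream region of MUTYH also differed between the WGBS libraries. Methylated calls were 91.1% of 270 in the cave library (exact interval 87.1% to 94.2%) and 27.2% of 394 in the surface library (22.8% to 31.8%). The difference of 64.0 points was called (two-sided Fisher's exact test, Benjamini-Hochberg adjusted p = 1.08e-63). The body of the gene was at 88.6% and 84.9%. By the labels, the WGBS library with more methylation upstream of MUTYH and the RNA libraries with more of its RNA both carry the name cave. At tdg.2 the same held, with an RNA difference that missed the threshold. Neither the RNA nor the WGBS labels were tested, and with the RNA labels alone exchanged the directions at both genes would be opposite. The shared direction by the labels did not hold throughout, and 12.1% of all upstream regions compared were called more methylated in the cave library. Among the other pathway, S phase and mitosis genes so called, RNA log2 fold changes lay below 0 at tyms (-0.32), cdk1 (-0.27) and slbp (-0.22). They also lay below 0 at suv39h1a (-0.15), zbtb33 (-0.086) and suv39h1b (-0.050). They lay above 0 at xrcc1 (0.39) and prim1 (0.19), and none of these passed the threshold. In the marker lists, regions so called belonged to 3 photoreceptor genes, whose RNA was called higher. They also belonged to 2 muscle genes above 0 and 2 epidermis genes below 0, none called. Whether upstream methylation and RNA go together was not tested.

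**Figure D5:**
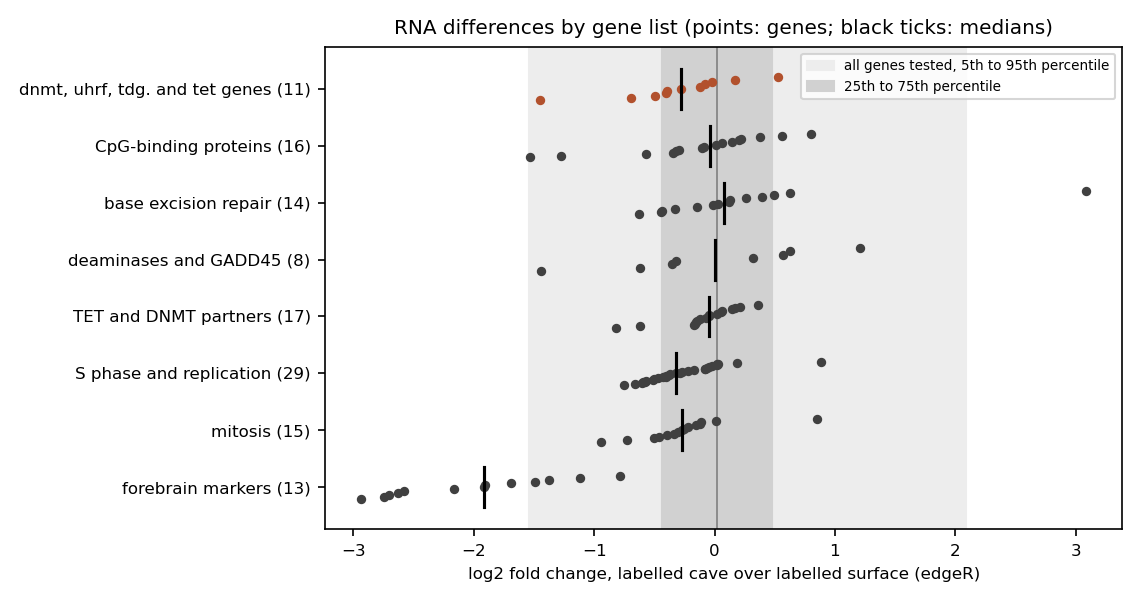
Log2 fold change from edgeR, labelled cave over labelled surface, of the 11 genes (brown) and of the genes of 7 other lists (black), with the number of genes tested in brackets and a tick at each list's median; shaded bands run from percentile 5 to 95 and from 25 to 75 of all 22850 genes. The 11 genes lie between -1.45 and 0.52, MUTYH stands alone at 3.08, and forebrain markers have a median of -1.92.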

How the data were processed

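RNA and WGBS libraries were grouped by the morph in the sample titles. Tools named by the submitters' processing notes are Bismark, STAR, Subread's featureCounts, Trimmomatic and DESeq2. No source used here gives their versions, the genome build or the cytosine context. The deposited RNA values are the authors' raw counts per gene. The deposited methylation values are, per region, counts by the authors of calls read as methylated or not. The authors' deposited comparison gives, per the file headers, a log2 fold change with its error and a p-value.

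Here counts were tested across all genes with edgeR 4.0.16 in R 4.3.3 (filterByExpr, TMM, quasi-likelihood, 2 against 2 libraries, Benjamini-Hochberg, threshold 0.05), with DESeq2 1.42.0 as an alternative. Standard errors are the log2 fold change over the square root of F. Log2 CPM for distances used a prior count of 2. Regions with at least 20 calls in each library were compared with Fisher's exact test in scipy 1.17.1. Both steps were tested on simulated data with independent calls, the same spread for every gene and no excess of even values. Those runs do not bear on dependent calls, doubled calls or uneven spread in the real data. Between 74.4% and 86.6% of counts from 1 to 30 were even, so counts were also halved. The members, lists and tests were chosen with earlier results of these data known. Named genes are all 11 members and, from the lists of the pathway and of S phase, genes past the threshold or among the 4 with the smallest p. Some further list genes are named as examples. Marker genes of cell types are given as lists only. Genes nearest in pattern are named for dnmt3bb.1, dnmt1 and tdg.2. List genes were matched by the symbols of the methylation table. Replicate numbers were not treated as pairs.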

Additional observations from a re-analysis of the deposited data

How the results depend on the processing

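Results depended most on which RNA library was left out. Fits with 1 library left out called between 0 and 2989 of all genes higher and between 0 and 4203 lower, between 0 and 1 of the 11 members higher and between 0 and 3 lower, and between 0 and 7 genes of the 4 other pathway lists in either direction. Without surface replicate 1 or 2 edgeR called 0 genes in all, with 1895 and 1605 at an unadjusted p under 0.05, and without cave replicate 2 it called 0 members higher. Without cave replicate 1 the log2 fold change was -2.13 at dnmt3bb.1 and 0.70 at tdg.2. Without cave replicate 2 it was -1.07 at dnmt3bb.1, -0.73 at dnmt1 and -0.79 at tet3. A lone library is assumed in such fits to vary like the other group. DESeq2 called 1593 genes higher and 756 lower, the latter 3.14% of 24108 genes. It called 1 of the 11 members lower, and 3 genes lower and 1 higher in the 4 other pathway lists, which held 55 genes in the edgeR test. Library totals in place of TMM left 60 genes lower. With the replicate block, 318 genes were called higher and 35 lower and 0 members. Deviations of same-numbered libraries from their group means correlated at -0.0709 across genes. That shows no strong shared deviation, but it cannot tell whether same-numbered libraries were prepared together. Halved counts, RLE factors and no filter changed no member's call. Of 110 alternative values of the members' log2 fold changes, 95 kept direction and call, 6 gained a call and 9 changed sign without a call; the cause was not tested.

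With 5 points as the size a call needs, 2 upstream regions of members were called higher (tdg.2 and tdg.1), 1 lower (UHRF2) and 1 gene body higher (tdg.1); over all regions 5698 were higher and 3916 lower upstream, and 3018 and 1655 in bodies. With 20 points these were 849 and 693, and 186 and 115. With all calls divided by 10, 639 and 567, and 506 and 325. The upstream call of tdg.2 stayed under each alternative run, but most of these could not have removed it. Its calls and its 24.1 points exceed every minimum tried, and fewer calls could move little but the p. None of the alternatives bears on having 1 library per morph, or on calls shared with the neighbouring gene's body. Upstream depth of 130 to 388 calls limits uhrf1bp1, uhrf1bp1l and tdg.1 most.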

Other observations

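The gene dnmt3bb.1 lies head to head with commd7, 1399 bases away on the other strand. The upstream regions of both were nearly free of methylation, at 3.20% and 2.94% for dnmt3bb.1 and 3.75% and 4.12% for commd7 in the cave and the surface library. Both regions start from the same gap and may share calls, so they are not separate observations. The RNA of commd7 was at 25.5 and 22.8 CPM in the libraries labelled cave and 36.2 and 29.1 CPM in those labelled surface. The log2 fold change was -0.43 against -1.45 for dnmt3bb.1. Neither was past the threshold (edgeR, Benjamini-Hochberg adjusted p = 0.397 and 0.157).

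Gene names differ between the count table and the methylation table for 1220 genes, and 1204 of these become equal once the digit 0 is removed. None of the 11 members is among them. Of 50542 upstream values of each WGBS library, 0 were odd for cave and 23624 for surface, and in gene bodies 0 and 24919.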
